A study of Mus musculus with 6 samples.

Results

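Nuclear long noncoding RNAs and the noncoding host genes of small nucleolar RNAs (snoRNAs) were examined in B16F10 cells, an established line of mouse melanoma cells. The 9 genes, chosen by their symbols and each found once among the 27179 rows of the expression table, were Malat1, Neat1, Gas5, Snhg1, Snhg3, Snhg6, Snhg8, Snhg12 and Snhg15. Wild-type B16F10 cells had been exposed for 6 h to 0.01% OZO, olive oil that was ozonated (3 libraries), or to 0.01% OLO, olive oil that was not (3 libraries), and their RNA was sequenced. Both groups were of 1 line and genotype, and both received oil. The value described for each gene is its average log2 CPM (reads of a gene scaled to a common library size) over all 6 libraries, a mean made by the authors. It joins OZO and OLO, so it gives neither a difference between them nor the spread between cultures. Values of single libraries were not used here, and the authors' own comparison of the groups was left out.

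Long noncoding RNAs are transcripts that are not translated into protein, and several of them stay in the nucleus and organise its bodies. Malat1 gathers in nuclear speckles, which store splicing factors. Neat1 is the scaffold on which paraspeckle proteins assemble. The snoRNA host genes carry small RNAs in their introns. The introns are cut out by splicing and trimmed to snoRNAs, which guide chemical modification or processing of ribosomal RNA, whereas the spliced host RNA is in several cases a target of nonsense-mediated decay, the pathway that removes transcripts with early stop codons. Box C/D snoRNAs guide 2′-O-methylation and box H/ACA snoRNAs guide the change of uridine to pseudouridine.

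Malat1 and the long form of Neat1 end in an unusual way. Their 3′ ends are not made by ordinary polyadenylation but by RNase P, which cuts before a tRNA-like small RNA, and the new end folds back on U-rich stretches into a triple helix. The sequences at these ends are shown because they are the feature that joins both RNAs. They were read on the minus strand of GRCm38 (mm10), from chr19:5795924-5796081 for Malat1 and chr19:5824708-5824807 for Neat1. Capitals mark every run of at least 10 letters that occurs in both stretches.
Malat1: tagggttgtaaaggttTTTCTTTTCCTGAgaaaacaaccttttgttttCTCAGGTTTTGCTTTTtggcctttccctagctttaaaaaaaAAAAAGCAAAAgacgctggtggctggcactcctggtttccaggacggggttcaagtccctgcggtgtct
Neat1: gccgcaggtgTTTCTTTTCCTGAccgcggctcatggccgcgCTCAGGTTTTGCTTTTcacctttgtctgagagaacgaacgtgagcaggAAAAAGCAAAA

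The 3 shared runs were 13, 16 and 11 bases long, 40 bases in all, and stood in the same order in both RNAs. The last of them, the A-rich run AAAAAGCAAAA, occurred once in the longest annotated transcript of each gene. In Neat1 it covered bases 20761 to 20771, the very end of the transcript. In Malat1 it covered bases 6681 to 6691 of 6983, and the tRNA-like mascRNA, 58 bases long, began at the next base, so that the annotated transcript ran 292 bases past the run. The same 11 letters, searched on the transcribed strand, were found in a transcript of 376 of 55450 annotated genes (0.678%) and of 42 of 10155 noncoding genes (0.414%).

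The cells had the markers of their lineage. All 7 melanocyte markers lay between 109 CPM (Sox10) and 7052 CPM (Dct), whereas 0 of 4 keratinocyte markers reached 1 CPM and Krt5 had no reads, although the tissue label reads skin. Of the fibroblast markers 3 of 4 reached 1 CPM, the highest being Pdgfra (3.28 CPM), as did Cd68 (5.47 CPM) among 4 leukocyte markers and Pecam1 (1.21 CPM) among 3 endothelial markers. Reads were present for 21154 genes, 11878 genes were at or above 1 CPM, and 1 CPM stood for 19.6 reads in a library of the geometric mean size, 19641945 reads. The depth of each library was not determined, and intervals between genes cannot be formed from an average alone.

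All 9 RNAs had reads, and 8 of them were at or above 1 CPM. Their average log2 CPM spanned 12.54 units, from 9.34 for Malat1 to -3.20 for Snhg3. By reads per gene, without regard to length, 4 of the 9 were among the 6 highest of 1533 long noncoding RNA rows with reads, and together the 9 made up 28.9% of the CPM summed over those rows, of which Malat1 alone gave 17.6%. Only 308 of these rows reached 1 CPM. The median CPM of the 9 RNAs, 17.5, stood at the 64.5th percentile of all genes with reads.

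**Figure D1:**
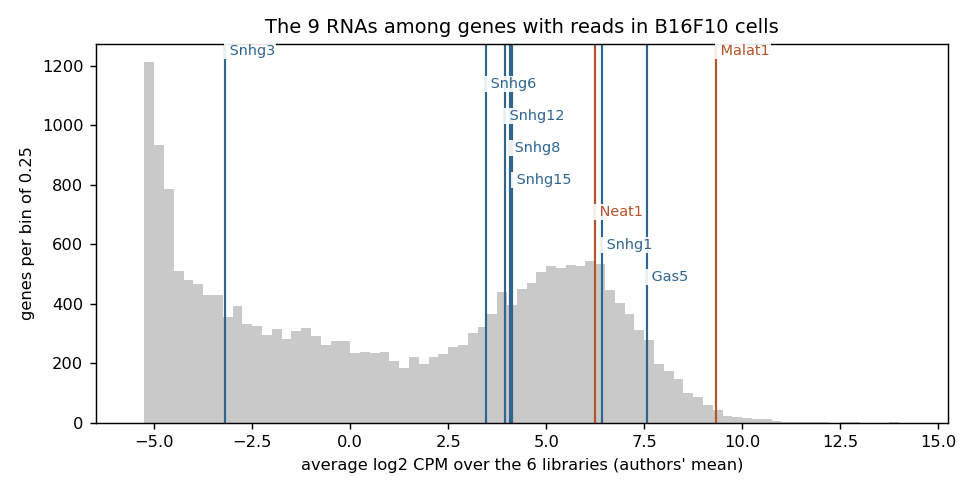
Distribution of the average log2 CPM over the 6 libraries for the genes with reads (grey, genes per bin of 0.25), with a line for each of the 9 RNAs (red for Malat1 and Neat1, blue for snoRNA hosts). Snhg3, at -3.20, lies far to the left of the other 8 lines, which run from 3.45 (Snhg6) to 9.34 (Malat1); the values are per gene and not per length.

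Long genes collect more reads, so levels of different genes were compared as CPM per kb, with all annotated exons of the gene as its length. These lengths come from GENCODE M21. The paper's methods do not name the annotation used for counting, so the exons counted may differ from those measured. Of the 9 RNAs, 8 were above the median of all genes with reads and a length, 1.22 CPM per kb, and all 9 were above the median of long noncoding RNA rows, 0.0644 CPM per kb. Malat1, Gas5, Snhg1, Snhg8, Snhg15 and Snhg6 were among the 25 highest of 1447 long noncoding RNA rows on this scale. The order from the top was Malat1, Gas5, Snhg1, Snhg8, Snhg15, Snhg6, Snhg12, Neat1 and Snhg3. Whether neighbours in this order differ beyond the spread between cultures cannot be told from an average.

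Malat1 (Entrez gene 72289, chr19:5795690-5802672, minus strand) was the highest long noncoding RNA row by CPM and, with all exons as length, per kb. Its average log2 CPM of 9.34 corresponds to 647 CPM, about 12716 reads in a library of the geometric mean size, and to 92.7 CPM per kb of its single exon block of 6983 bases. On the per-length scale it was at the 98.2th percentile of all genes. The next long noncoding RNA was Norad, which binds Pumilio proteins in the cytoplasm, at 78.3 CPM per kb, and Malat1 exceeded it 1.18-fold per length, or 2.04-fold with the mean transcript length. The genes of 4 nuclear speckle proteins were all lower than Malat1 on this scale, with a median of 42.9 CPM per kb, from 25.9 for the splicing coactivator Srrm1 to 49.4 for pinin (Pnn).

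Neat1 (Entrez gene 66961, chr19:5824708-5845478, minus strand), 22035 bases from Malat1 on the same strand, had an average log2 CPM of 6.24, or 75.7 CPM. Spread over its 20771 bases this was 3.64 CPM per kb, at the 60.9th percentile, and Neat1 went from the sixth to the 62nd place among long noncoding RNAs when length was counted. Per length, Malat1 was 25.5 times as high as Neat1. The gene gives a short polyadenylated and a long RNA from the same start, and CPM over the whole gene does not separate them. The paper's methods do not say whether polyadenylated RNA was selected for the libraries. The part of this step in the levels of Malat1 and Neat1, and in their ratios to other genes, was not tested. With the mean length of the 4 annotated transcripts, 6379 bases, Neat1 came to 11.9 CPM per kb. The genes of paraspeckle proteins were at or above 1 CPM in 12 of 12 cases, with a median of 30.7 CPM per kb, from Hnrnph3 (2.07) to Hnrnpk (131), both RNA-binding hnRNP proteins.

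**Figure D2:**
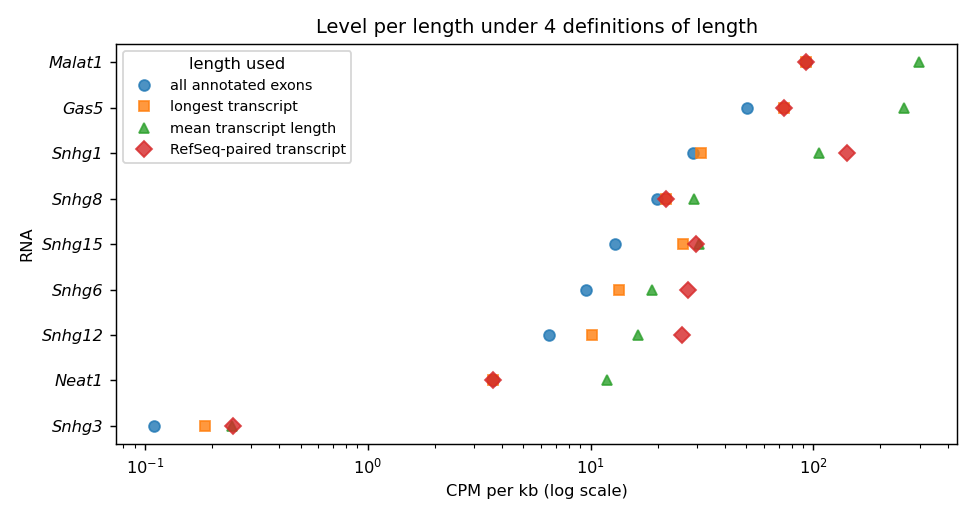
Level per length (CPM per kb, log scale) of each of the 9 RNAs with 4 definitions of its length: all annotated exons, the longest transcript, the mean over transcripts and the transcript paired with a RefSeq record. Neat1 and Snhg3 keep the lowest places under all 4, whereas Snhg1 moves from 28.9 to 142 CPM per kb and passes Malat1 and Gas5 with the RefSeq-paired length.

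The 7 host genes held 28 annotated snoRNA entries on their own strand, which came to 26 snoRNAs once overlapping entries of 1 name (Snord80 in Gas5, Snora16a in Snhg12) were counted once, by the longer. They were 60 to 205 bases long, and each of the 26 lay in an intron of at least 1 host transcript. Gas5 held 9, Snhg1 held 8, Snhg12 held 4, Snhg3 held 2, and Snhg6, Snhg8 and Snhg15 held 1 each. A C box (TGATGA within the first 20 bases) together with a D box (CTGA within the last 15 bases) was found in 14 of them, an ACA triplet 3 bases before the 3′ end in 7, of which Mir5117 in Gas5 also had both boxes, a D box without the C box in 5, and none of these in Snora44, searched on the transcribed strand. The same search found both boxes in 20.2%, a D box with or without a C box in 31.4% and the ACA triplet in 18.3% of the 1507 annotated mouse snoRNAs. Both boxes were found in 7 of 9 in Gas5 and 5 of 8 in Snhg1, a D box alone in the other 5, and an ACA triplet in 1 of these 17, Mir5117.

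**Figure D3:**
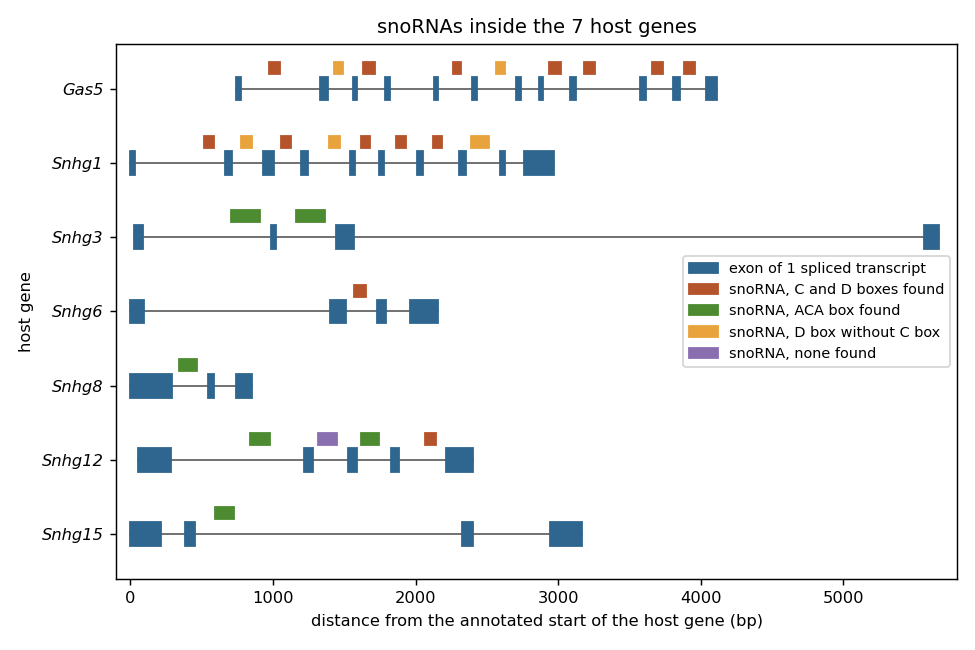
Map of the 7 host genes from their annotated start (distance in bp), with the exons of 1 spliced transcript (blue) and the snoRNAs drawn above them, coloured by the boxes found (Mir5117 in Gas5, with C and D boxes and an ACA triplet, by the former). The snoRNAs sit between the exons of the transcript drawn, mostly 1 to an intron, and those of Gas5 and Snhg1 carry C and D boxes or a D box alone.

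Of the 26 snoRNAs, 10 had a row in the expression table. The one with the highest level in each of the 5 hosts with snoRNA reads is shown, with the boxes searched for in capitals, since these small RNAs are what the hosts are known to make. All coordinates are on GRCm38. Snord47 lies in Gas5 at chr1:161038082-161038158 (plus strand), Snord22 in Snhg1 at chr19:8725866-8725991 (plus), Snora73a, also known as U17, in Snhg3 at chr4:132352775-132352979 (minus), Snord87 in Snhg6 at chr1:9942463-9942549 (minus) and Snora16a in Snhg12 at chr4:132309464-132309600 (plus).
Snord47: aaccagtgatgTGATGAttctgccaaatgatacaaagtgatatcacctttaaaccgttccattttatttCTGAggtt
Snord22: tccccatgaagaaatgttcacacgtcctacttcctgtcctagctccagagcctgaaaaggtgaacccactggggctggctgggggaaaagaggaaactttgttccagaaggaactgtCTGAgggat
Snora73a: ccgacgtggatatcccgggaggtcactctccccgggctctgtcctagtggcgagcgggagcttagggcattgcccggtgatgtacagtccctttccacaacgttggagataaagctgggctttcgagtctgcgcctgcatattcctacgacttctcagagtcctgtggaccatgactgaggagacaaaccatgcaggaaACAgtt
Snord87: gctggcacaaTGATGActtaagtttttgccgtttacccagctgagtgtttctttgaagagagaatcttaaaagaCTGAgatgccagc
Snora16a: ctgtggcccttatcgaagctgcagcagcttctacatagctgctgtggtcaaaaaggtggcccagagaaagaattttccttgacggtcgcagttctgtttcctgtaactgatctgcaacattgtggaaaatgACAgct

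Snord47 and Snord87 show both boxes near their ends, Snora73a and Snora16a end in the ACA triplet and its last 3 bases, and Snord22 held the D box but not the C box as spelled here. Reads were found for 8 of the 10 snoRNAs with a row, and 3 reached 1 CPM. Snord22 had 2.49 CPM (19.8 CPM per kb), Snora73a 1.55 CPM (7.56 per kb) and Snora16a 1.10 CPM (8.0 per kb). Over all genes, 99 of 123 snoRNA rows had reads, 15 reached 1 CPM, and the highest was Snora28 with 8.90 CPM. Snord22 was number 5 in that order.

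Gas5 (Entrez gene 14455, chr1:161034422-161038539, plus strand), named for its accumulation in growth-arrested cells, was the highest of the 7 hosts. It had an average log2 CPM of 7.57, or 189 CPM and 50.4 CPM per kb, at the 95.9th percentile per length. Malat1 was 1.84 times as high per length, and between 1.17 and 1.84 times over the 4 definitions of length. With 25 annotated transcripts and 3760 bases of exons in a gene of 4118 bases, most introns are an exon in some transcript, and the longest single transcript had 2556 bases. Of its 9 snoRNAs, Snord47 alone had a row, at 6.97 CPM per kb.

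Snhg1 (Entrez gene 83673, chr19:8723475-8726443, plus strand) was the next host, with an average log2 CPM of 6.42, or 85.7 CPM and 28.9 CPM per kb. Gas5 was 1.75 times as high per length. This order turned when the 605 bases of the RefSeq-paired Snhg1 transcript were used, since Snhg1 then came to 142 CPM per kb and the ratio of Gas5 to Snhg1 to 0.523. All 2969 bases of the gene are exonic in at least 1 of its 18 annotated transcripts. The snoRNA Snord22 was at 19.8 CPM per kb.

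Snhg8 (chr3:123507552-123508404, minus strand), Snhg15 (chr11:6525591-6528760, minus strand), Snhg12 (chr4:132308623-132311024, plus strand) and Snhg6 (chr1:9941959-9944118, minus strand) formed a middle group, from 10.9 to 17.5 CPM, a range of 1.60-fold. Snhg15 had an average log2 CPM of 4.13 and 12.9 CPM per kb, and hosts Snora9. Snhg8 had 4.08 and 19.9 CPM per kb, and hosts Snora24. Snhg12 had 3.96 and 6.48 CPM per kb, and is the host of 4 snoRNAs. Snhg6 had 3.45, the lowest CPM of the group, and 9.55 CPM per kb. Their order depended on the length used: Snhg8 was the highest of the 4 with all exons (19.9) and the lowest with RefSeq-paired transcripts (21.9 CPM per kb, against 25.7 for Snhg12, 27.4 for Snhg6 and 29.6 for Snhg15). Of the 1146 exonic bases of Snhg6, 127 (11.1%) also lie in Mcmdc2, a gene of the opposite strand with 0.422 CPM.

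In Snhg12, the snoRNA Snora16a was at 8.0 CPM per kb, above its host with all exons as length (6.48) and below it with the other 3 lengths (10.1, 16.4 and 25.7). The other 3 snoRNAs of this gene were below it, Snord99 at 5.80, Snora61 at 1.98 and Snora44 at 1.45 CPM per kb. Snord87 in Snhg6 had 1.13 CPM per kb, from a geometric mean of 1.43 reads. Snora24 in Snhg8 had no reads in any library, at a host level of 19.9 CPM per kb. All 130 bases of Snora24 also lie in annotated exons of Snhg8. The same holds for Snord47, Snord22 and the snoRNAs of Snhg12 in their hosts. How reads over such shared bases were assigned is not given in the sources used here. How far the libraries captured RNAs this short was not tested, so a low or absent value is not a measure of the amount of snoRNA.

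**Figure D4:**
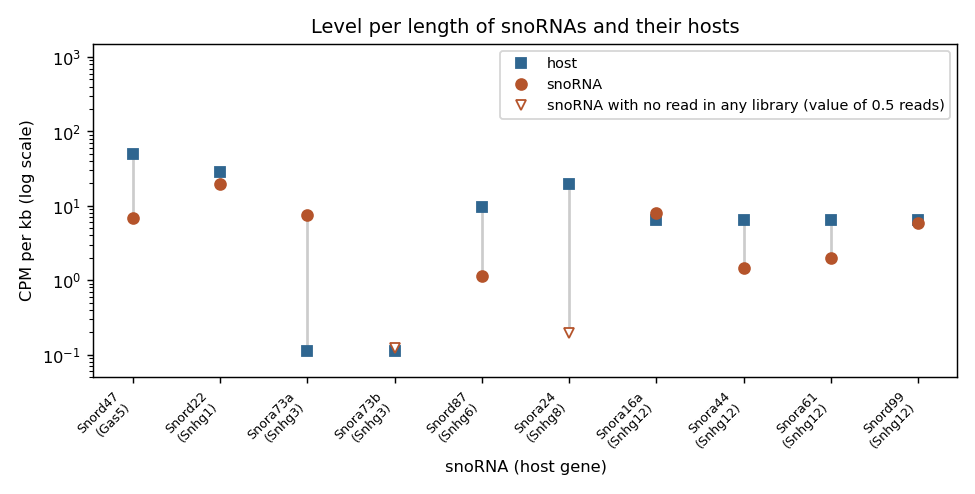
Level per length (CPM per kb, log scale) of the 10 snoRNAs with a row (red circles, open triangles where no library had a read and the value is that of 0.5 reads) and of their host genes (blue squares), joined by a line. Snora73a, at 7.56, is the only snoRNA far above its host (Snhg3, 0.110), and Snora16a (8.0) is close to Snhg12 (6.48); host levels use all annotated exons.

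Snhg3 (Entrez gene 399101, chr4:132348014-132353686, minus strand) stood apart from the other hosts. Its average log2 CPM of -3.20 is 0.109 CPM, a geometric mean of 1.64 reads in a library, and it was at the 25.1th percentile by CPM and the 31.3th per length. The lowest of the other 6 hosts per length was Snhg12 with all exons, 58.8 times as high, and over the 4 definitions of length the lowest of them (Snhg12, or Snhg8 with RefSeq-paired transcripts) was 54.1 to 87.8 times as high. An average this low restricts the counts behind it, because the product, over the 6 libraries, of 2 times the reads plus 1 has to be a whole odd number. For Snhg3 this product was 6075, which allows 46 sets of 6 counts with totals from 11 to 3037 reads, and reads in anything from 1 to 6 libraries. The average therefore does not say whether a few reads lay in each library or many in 1.

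Snora73a was the snoRNA with the opposite relation to its host. At 1.55 CPM against 0.109, Snhg3 was at 0.0702 of the CPM of the snoRNA inside it. The second snoRNA of the gene, Snora73b, had no reads. Both are 205 bases long and are the same at 198 of 205 positions (96.6%), so that reads could be shared between these copies and their levels are uncertain. Of the 986 exonic bases of Snhg3, 159 lie in Snora73a, 135 (13.7%) lie in Rcc1 on the same strand, and 705 (71.5%) lie in Gm17300 on the opposite strand. Rcc1, the nucleotide exchange factor of the GTPase Ran, was at 53.5 CPM, and its span, chr4:132331919-132353605 on the same strand, encloses both snoRNAs, so that they are intronic to Rcc1 as well. How reads over such shared bases were assigned, and whether strand was used, is not given in the sources used here, and its part in the level of Snhg3 was not tested.

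Set among the other noncoding snoRNA hosts, the 7 genes lay mostly in the upper part. The 7 had a median of 12.9 CPM per kb, and 13 other hosts, 12 of which had a length, had a median of 1.72. Reads were present for 12 of these 13, and 9 were at or above 1 CPM. On the joint order per length Gas5 and Snhg1 came first, followed by Snhg5 (23.9 CPM per kb), the highest of the others. Snhg3 came 17th of the 19 hosts with a length, above Snhg18, which had no reads, and Snhg14 (0.00234 CPM per kb). Snhg9 was also near the floor, with 2 to 4 reads over all libraries. Snhg14 is the long host of the imprinted Prader-Willi snoRNA clusters.

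**Figure D5:**
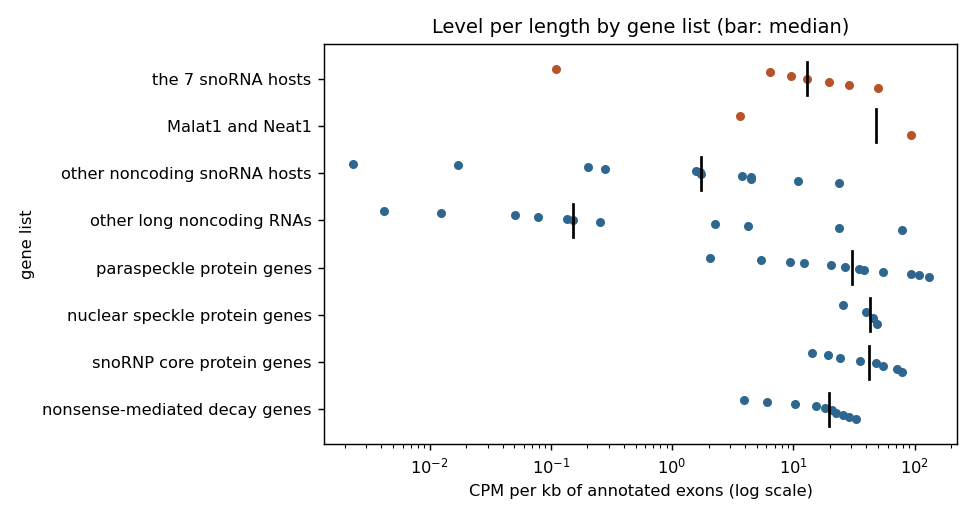
Level per length (CPM per kb of annotated exons, log scale) of each gene in the lists of hosts, other long noncoding RNAs and genes of protein partners, with the list median as a bar. The hosts described here (red, median 12.9) spread from 0.110 to 50.4, and the lists of protein partners have medians between 19.6 and 42.9.

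A list of other long noncoding RNAs, most of them known as nuclear and Norad as cytoplasmic, spanned a wide range. All 11 had reads and 7 reached 1 CPM, with a median of 0.152 CPM per kb, and with all exons as length Malat1 was above each of them while Neat1 was below Norad (78.3), Tug1 (24.0) and Firre (4.20). At the lower end H19 and Mirg, both from imprinted loci, had exactly 1 read in 1 library.

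The genes of proteins known to work with these RNAs were read at the RNA level only. Of the 8 genes of snoRNA particle core proteins all were at or above 1 CPM, with a median of 42.0 CPM per kb, from Gar1 (14.2) to Nhp2 (78.6), both of H/ACA particles. Of the 10 genes of nonsense-mediated decay factors all were above 1 CPM as well, with a median of 19.6 CPM per kb, and the lowest was Smg9 (3.89). Of the hosts, Gas5, Snhg1 and Snhg8 were above the median of the decay factors per length, Snhg8 by little (19.9 against 19.6).

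Several snoRNA hosts belong to the genes with a 5′ terminal oligopyrimidine tract, in which the RNA begins with C and a run of pyrimidines. This feature ties their translation, and that of ribosomal protein mRNAs, to growth signalling through mTOR. Start sites of RefSeq (GRCm38.p6) were at hand for 7 of the 9 genes. The 20 bases before and the 30 bases from the start are shown for the 3 genes with a run of 5 or 6 bases and for Snhg15, which had none, with the pyrimidine run at the start in capitals. They lie at chr3:123508307-123508356 (minus strand) for Snhg8, chr4:132308658-132308707 (plus) for Snhg12, chr1:161035146-161035195 (plus) for the second of 2 starts of Gas5, and chr11:6528731-6528780 (minus) for Snhg15.
Snhg8: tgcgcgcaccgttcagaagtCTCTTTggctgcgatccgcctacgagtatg
Snhg12: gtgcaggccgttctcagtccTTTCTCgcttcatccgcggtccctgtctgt
Gas5: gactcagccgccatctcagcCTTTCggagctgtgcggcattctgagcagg
Snhg15: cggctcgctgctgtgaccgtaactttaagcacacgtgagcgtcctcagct

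A C followed by at least 4 further pyrimidines at the first listed start was found in 1 of the 7 genes, Snhg8, whose run was 6 bases long. The run of Snhg12 was equally long but began with T, that of Snhg1 had 3 bases, and the first start of Gas5 began with G while the second had a run of 5. Over all genes with a start sequence, 673 of 27025 (2.49%) held the tract, and 13 of 64 ribosomal protein genes did (20.3%). When every annotated transcript start was searched, 5 of the 9 genes had it at 1 start or more (Gas5, Snhg3, Snhg6, Snhg8 and Snhg12), against 4.91% of 61771 genes. Genes with many annotated starts have more chances to hold the tract in such a search, Gas5 with 21 and Snhg1 with 17 distinct starts, and a match describes letters and not the start that these cells used.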

How the data were processed

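RNA of B16F10 cells was sequenced in 6 libraries, 3 per group, 6 h after 0.01% OZO or OLO. Libraries were made with a directional kit and read as paired ends. The paper's methods do not say whether polyadenylated RNA was selected, which bears on RNAs without a polyadenylated end. Per the submitters' processing notes and the methods, the authors aligned reads to mm10 with HISAT2 (2.1.0), estimated transcripts with StringTie (1.3.4d), counted with featureCounts (2.1.1) and ran limma-voom (3.58.1). Strand use, overlap settings and the handling of reads with several matches are not given in the sources used here, and can move the levels of overlapping genes.

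The deposited table holds 1 row per gene. Its 5 columns on the comparison of OZO with OLO (log2 fold change, moderated statistic, p-value, adjusted p-value and log-odds) were not used, and 0 columns hold values of single libraries. The value used was the average log2 CPM that the authors deposited, over all 6 libraries, and no count model or test was run. The plan for a table of this kind was followed. Replicates are separate libraries in the labels, which do not say whether they came from separate cultures.

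CPM was taken as 2 to the power of the average, a geometric mean that includes the 0.5 reads voom adds. Rows sharing the lowest value, 6025, had no reads in any library, and gave the geometric mean library size through the formula of voom. Lengths, positions and snoRNAs come from GENCODE M21 on GRCm38, found for 25321 rows, and Snhg1, with no Ensembl identifier in the table, was linked by symbol. Start sequences come from RefSeq GRCm38.p6. The 9 genes and the gene lists were chosen with earlier results of these data known. Of each list, the highest and lowest genes and those without reads were named, except for an item that is not reported here; others named with a value (Tug1, Firre, Rcc1, Gm17300, Mcmdc2, Snhg9, Norad beside Malat1) were chosen after their values were seen. Alternatives changed the genes ranked against, the length and the tract. The calculations were tested on simulated data with Python 3.11.15, numpy 2.4.6, scipy 1.17.1 and pandas 2.3.3.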

Additional observations from a re-analysis of the deposited data

How the results depend on the processing

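The median of the 9 RNAs among genes with reads, at the 64.5th percentile by CPM, came to 72.4 among all rows of the table, 36.8 among rows at or above 1 CPM and 80.8 on the scale per kb of exons. The median level per length, 12.9 CPM per kb with all annotated exons, came to 21.9 with the longest transcript and 29.0 with the mean transcript length, and to 27.4 with the RefSeq-paired transcript, a setting chosen after seeing the data. With every annotated start, 5 genes held the pyrimidine tract in place of 1, and with a limit of 4 pyrimidines the count stayed at 1. Subtracting the 0.5 reads that voom adds left the median at 17.5 CPM. For Snhg3 it lowered the level from 0.109 to 0.0833 CPM, and the ratios given for Snhg3 include these added reads. For single genes, 14 of 63 alternative values lay within the interval set around the reported value and 49 beyond it. For percentiles this was a 95% binomial interval over the number of genes ranked. It is narrow and holds no error from reads or replicates. No paired analysis was possible because values of single libraries were not used here. For the same reason the planned count and log-scale tests of OZO against OLO, with their other tools, filters, pseudocounts, replicate blocks and left-out replicates, were not run. Snhg3 and most snoRNAs with a row were below 1 CPM, or 19.6 reads in a library of the geometric mean size, so their values rest on few reads per library on average. What keeps them low was not tested, and an average over 6 libraries carries no error between them.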
